A study of Xenopus tropicalis with 24 samples.

Results

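The early response of the tadpole tail to amputation was described at stage 56, a premetamorphic stage of *Xenopus tropicalis* at which the tail can regenerate. The comparison set 4 libraries taken 6 h post amputation (hpa) against 4 libraries taken at 0 hpa, which makes 8 of the 24 libraries of the series. At each time 2 libraries came from TRDKO tadpoles and 2 from wild-type (WT) tadpoles, and genotype was a block in the test. TRDKO tadpoles lack both thyroid hormone receptors (TRα(-/-)β(-/-)) and were bred from frogs that carried the TRα knockout on both chromosomes and the TRβ knockout on one, whereas the wild-type line had both receptors intact. The groups are TRDKO56 at 6 hpa, WT56 at 6 hpa, TRDKO56 at 0 hpa and WT56 at 0 hpa, and the labels give no hormone treatment for them. The tissue was any new growth together with a short piece of the stump. It held epidermis, muscle, notochord, spinal cord, vessels and blood cells, so fewer cells of a type and less RNA per cell cannot be told apart. Several tadpoles contributed to each condition, and how they were shared out among its libraries is not given in the sources used here, so that p-values measure the spread between libraries, which may be technical.

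After a tail is cut, epidermal cells migrate over the wound, blood cells and tissue cells release signals that attract leukocytes, and proteases open the matrix at the stump. Neutrophils arrive first and macrophages follow. A wound epidermis then forms, and dividing cells collect beneath it as a blastema. At 6 hpa the tissue is thus in the wound-healing period, before the blastema forms.

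The 8 libraries held 3956148 to 12474842 counts, with replicate 2 of WT56 at 0 hpa the smallest. Levels are given as CPM, which are counts scaled to the size of the library with TMM factors. Transcripts of both receptor genes were counted in all groups, TRDKO56 included. *thra* (TRα, chromosome 10, 9063035 to 9190651 on UCB_Xtro_10.0) measured 6.07 and 5.87 CPM in TRDKO56 and 5.72 and 4.05 CPM in WT56 at 6 hpa, against 5.93 and 7.36 CPM in TRDKO56 and 6.41 and 5.52 CPM in WT56 at 0 hpa. *thrb* (TRβ, chromosome 6, 46687270 to 46933187) measured 22.2 and 13.7 CPM in TRDKO56 and 8.39 and 4.74 CPM in WT56 at 6 hpa, against 20.7 and 28.8 CPM in TRDKO56 and 8.91 and 12.3 CPM in WT56 at 0 hpa. The level of *thrb* was higher in both TRDKO56 libraries than in both WT56 libraries at each time. Neither gene passed the test between the time points (log2 FC -0.23 and -0.54), and a count of transcripts does not tell whether they yield a working receptor. In a principal component analysis of the most variable genes, the first component held 60.1% of the variance and separated the times, and the second held 30.4% and separated the genotypes. The biological coefficient of variation between the libraries of a condition was 19.8% in TRDKO56 and 18.3% in WT56 at 6 hpa, against 12.1% in TRDKO56 and 11% in WT56 at 0 hpa.

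Between 6 and 0 hpa, 1834 of 15867 genes tested were differentially expressed (DEGs), that is 11.6%. A DEG has an absolute log2 fold change (FC) over 1 and a false discovery rate (FDR) under 0.05 in edgeR. Of the DEGs 933 rose (5.88% of the genes tested) and 901 fell (5.68%), and the median log2 FC over all genes tested was -0.02. These shares are the background beside which the counts of the gene lists below are to be read. The rises were the larger changes, since 270 genes rose by more than 2 on the log2 scale and 128 fell by more than that. The 4 libraries at 6 hpa did not overlap with the 4 at 0 hpa in 1563 of the DEGs, whereas this held for 31.8% of all genes tested. When edgeR tested against the limit of 1 itself (glmTreat), 510 genes passed (325 up, 185 down), and 73 of the 169 DEGs that are named here by rule lost their call.

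**Figure D1:**
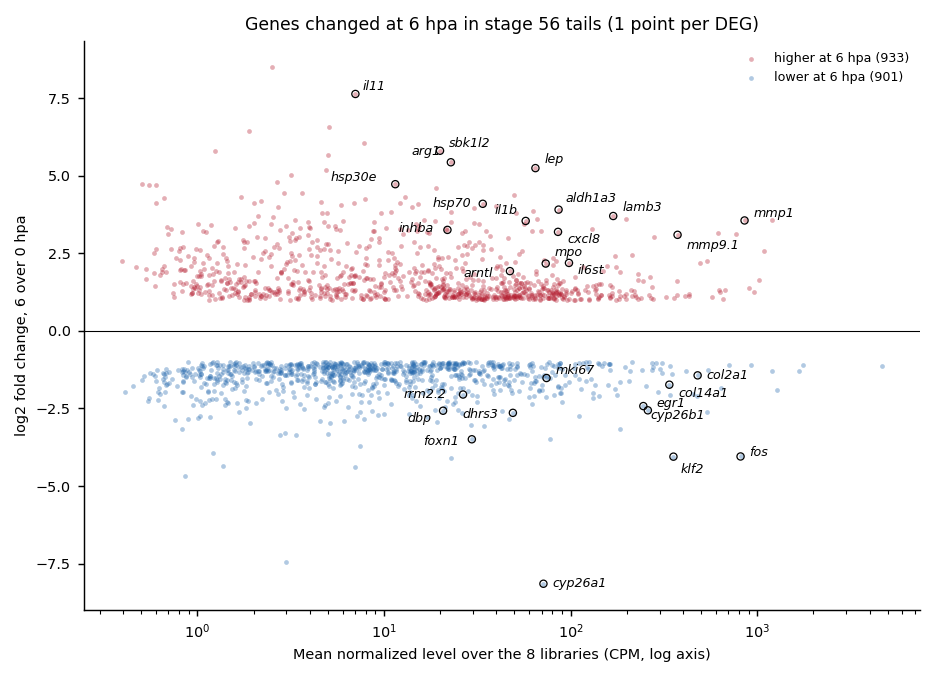
Each point is 1 of the 1834 DEGs of stage 56 tails, with its mean level over the 8 libraries in CPM (log axis) across and its log2 fold change (6 over 0 hpa) upward. Red points (933) were higher and blue points (901) lower at 6 hpa. *cyp26a1* lies lowest among the labelled genes at a log2 FC of -8.15, and *lep* lies at 5.24; the height of *il11* is a fitted value, since it had at most 2 counts in a library at 0 hpa.

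Taking DEGs with a gene symbol that averaged 10 CPM or more and whose libraries at the 2 times did not overlap, the 12 largest rises were in *sbk1l2*, *arg1* (arginase 1), *lep* (leptin), *hsp30e* and *hsp70* (heat shock proteins), *olfm4* (olfactomedin 4), *mmp13l* (a collagenase), *pglyrp1-like.1* (a peptidoglycan recognition protein), *il1r2* (a decoy receptor for IL-1), *aldh1a3* (a retinaldehyde dehydrogenase), *pdcd1lg2* (a ligand of the PD-1 receptor) and *mmp19* (a matrix metalloproteinase). *sbk1l2* (chromosome 7, 103616291 to 103621744) measured 26.7 and 25.1 CPM in TRDKO56 and 32.4 and 73 CPM in WT56 at 6 hpa, against 0.495 and 0.676 CPM in TRDKO56 and 0.601 and 0.92 CPM in WT56 at 0 hpa (log2 FC 5.80, SE 0.35, FDR 1.85e-06). *olfm4* measured 11.8 and 31 CPM in TRDKO56 and 23.3 and 80.5 CPM in WT56 at 6 hpa, against 0.989 and 1.1 CPM in TRDKO56 and 2.1 and 0.92 CPM in WT56 at 0 hpa (log2 FC 4.62, SE 0.65, FDR 0.00199). That the libraries did not overlap was required by the selection, and in both genes the lowest at 6 hpa was far above the highest at 0 hpa. The 12 largest falls were in *cyp26a1* and *dhrs3* of retinoic acid metabolism, the transcription factors *klf2*, *fos*, *egr1*, *nr4a1*, *nr4a2*, *dbp* and *foxn1*, and in *snx31*, *faah.3* (a fatty acid amide hydrolase) and *smc6*. *foxn1* (chromosome 2, 34721185 to 34770904), which encodes a transcription factor of thymus and skin epithelium, measured 7.18 and 2.8 CPM in TRDKO56 and 7.3 and 1.98 CPM in WT56 at 6 hpa, against 45.4 and 60.6 CPM in TRDKO56 and 59.6 and 51.8 CPM in WT56 at 0 hpa (log2 FC -3.49, SE 0.39, FDR 0.000471). *snx31*, a sorting nexin, measured 5.83 to 17.4 CPM at 6 hpa, against 65.6 to 107 CPM at 0 hpa, and *smc6*, part of a DNA repair complex, measured 1.98 to 15.1 CPM at 6 hpa, against 25.5 to 55.4 CPM at 0 hpa. That these 3 genes did not overlap between the times was likewise required by the selection. Between the 2 libraries of a genotype at 6 hpa, replicate 2 had less than replicate 1 of each of the 3 in both genotypes.

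Cells switch on immediate early genes, many of which code for transcription factors, within minutes of a stimulus and without new protein synthesis. These genes are switched off soon after. Of 47 such genes tested, 14 fell and 4 rose (38.3% called, against 11.6% of all genes tested), with a median log2 FC of -0.28. The tails at 0 hpa were also cut and dissected, and the series has no uncut tails. Whether the levels at 0 hpa were resting levels of these genes was not tested. The rises were 1 without replicate 2 of TRDKO56 at 6 hpa, 2 without replicate 2 of TRDKO56 at 0 hpa and 7 without replicate 1 of WT56 at 6 hpa. *fos* (chromosome 8, 82309660 to 82312599), a subunit of the transcription factor AP-1, measured 46.5 and 64.5 CPM in TRDKO56 and 52.3 and 204 CPM in WT56 at 6 hpa, against 764 and 999.5 CPM in TRDKO56 and 1963 and 2421 CPM in WT56 at 0 hpa. Its level at 0 hpa was thus higher in both libraries of WT56 than in those of TRDKO56, and all 4 libraries at 6 hpa were below all 4 at 0 hpa (log2 FC -4.05, SE 0.43, FDR 0.000403). *jun* (chromosome 4, 86739842 to 86742008), its partner in AP-1, measured 54 and 82 CPM in TRDKO56 and 72 and 84.2 CPM in WT56 at 6 hpa, against 203 and 225 CPM in TRDKO56 and 258 and 399 CPM in WT56 at 0 hpa (log2 FC -1.86, SE 0.18, FDR 1.82e-05). *egr1* (chromosome 3, 48248147 to 48251735) measured 60.3 and 79.7 CPM in TRDKO56 and 34.9 and 121 CPM in WT56 at 6 hpa, against 377 and 326 CPM in TRDKO56 and 457 and 620.2 CPM in WT56 at 0 hpa (log2 FC -2.56, SE 0.38, FDR 0.00221). Neither gene overlapped between the times. *klf2* (chromosome 1, 112428739 to 112432154), a Krüppel-like factor, measured 18 and 44.9 CPM in TRDKO56 and 22 and 56.8 CPM in WT56 at 6 hpa, against 277 and 386 CPM in TRDKO56 and 954 and 1087 CPM in WT56 at 0 hpa (log2 FC -4.05, SE 0.51, FDR 0.00125). *nr4a1*, an orphan nuclear receptor, measured 20.01 and 38.6 CPM in TRDKO56 and 23.3 and 48.4 CPM in WT56 at 6 hpa, against 119 and 212 CPM in TRDKO56 and 468 and 538 CPM in WT56 at 0 hpa (log2 FC -3.16, SE 0.45, FDR 0.00207). Both had their highest values in WT56 at 0 hpa. *nr4a2* fell likewise (4.44 to 6.42 CPM at 6 hpa, against 11.1 to 93.5 CPM at 0 hpa, log2 FC -3.03). *fosb* measured 4.34 to 19.8 CPM at 6 hpa, against 8.16 to 285 CPM at 0 hpa (log2 FC -3.48, FDR 0.017), its groups overlapped, and its call was lost without WT56 at 6 hpa, replicate 2 (FDR 0.0969) or TRDKO56 at 0 hpa, replicate 2 (FDR 0.0937).

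Some members of the immediate early list were not called lower. *atf3* (chromosome 5, 14454847 to 14466122), a stress-induced member of the same protein family, measured 22.9 and 39.6 CPM in TRDKO56 and 27.5 and 47.8 CPM in WT56 at 6 hpa, against 18.9 and 31.9 CPM in TRDKO56 and 98.5 and 136 CPM in WT56 at 0 hpa and did not pass the test (log2 FC -0.69, FDR 0.312). Its change was 0.29 in TRDKO56 and -1.63 in WT56. *myc* (chromosome 6, 141192685 to 141203950), which drives growth and ribosome production, measured 215 and 359 CPM in TRDKO56 and 209 and 273 CPM in WT56 at 6 hpa, against 97.4 and 102 CPM in TRDKO56 and 165 and 172 CPM in WT56 at 0 hpa (log2 FC 1.02, SE 0.24, FDR 0.0086). Its groups were apart, but the change was 1.53 in TRDKO56 and 0.52 in WT56, and the call was lost without either TRDKO56 library at 0 hpa or TRDKO56 at 6 hpa, replicate 2 (log2 FC 0.89, 0.91 and 0.75) and in the wild-type libraries alone. *plk3*, a stress-responsive kinase on the same list, rose (17.5 to 31.4 CPM at 6 hpa, against 7.29 to 12.2 CPM at 0 hpa, log2 FC 1.30 ± 0.22, SE).

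Cytokines of the IL-6 family signal through the shared receptor gp130, and leptin through a related receptor, and both activate the transcription factor STAT3. Of 28 genes of this pathway tested, 10 rose and none fell at these limits (35.7% called, against 11.6% of all genes tested). The median log2 FC was 0.78. At the FDR limit alone 19 were higher and 1 lower. Among the ligands, *lep* (chromosome 3, 87922386 to 87928377) measured 106 and 166 CPM in TRDKO56 and 78 and 156 CPM in WT56 at 6 hpa, against 1.98 and 3.72 CPM in TRDKO56 and 3.9 and 3.68 CPM in WT56 at 0 hpa (log2 FC 5.24, SE 0.34, FDR 1.50e-05). *il11* (chromosome 7, 105783885 to 105803258) had 164 and 205 counts in TRDKO56 and 70 and 174 counts in WT56 at 6 hpa, against 0 and 2 counts in TRDKO56 and 0 and 0 counts in WT56 at 0 hpa. Taking 3 counts per library as the floor, *il11* was at least 30.4-fold higher at 6 hpa. *il6st* (chromosome 1, 191269715 to 191308305), which codes for gp130 itself, measured 145 and 163 CPM in TRDKO56 and 142 and 194 CPM in WT56 at 6 hpa, against 34 and 37.2 CPM in TRDKO56 and 34 and 35.6 CPM in WT56 at 0 hpa (log2 FC 2.19, SE 0.13, FDR 2.11e-07). For all 3 genes every library at 6 hpa lay above every library at 0 hpa, and the 4 libraries at 0 hpa were close to each other for *il6st*.

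Suppressors of cytokine signalling (SOCS) are feedback inhibitors of this pathway. *socs3l* measured 51.6 and 56.2 CPM in TRDKO56 and 34.8 and 51.7 CPM in WT56 at 6 hpa, against 7.42 and 11 CPM in TRDKO56 and 4.61 and 7.05 CPM in WT56 at 0 hpa (log2 FC 2.72, SE 0.19, FDR 1.68e-06). *socs1* measured 15.2 to 35 CPM at 6 hpa, against 3.09 to 6.11 CPM at 0 hpa (log2 FC 2.71 ± 0.32, SE). *socs3* (chromosome 10, 31293195 to 31295891) measured 242 and 352 CPM in TRDKO56 and 238 and 360.2 CPM in WT56 at 6 hpa, against 63.4 and 117 CPM in TRDKO56 and 169.5 and 221 CPM in WT56 at 0 hpa (log2 FC 1.17, SE 0.32, FDR 0.0255). All 3 were without overlap. The call of *socs3* was the weakest, since leaving out any of 6 libraries ended it (log2 FC 0.90 to 1.20, FDR up to 0.0900) and the wild-type libraries alone did not pass (log2 FC 0.62 in WT56 against 1.71 in TRDKO56).

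IL-1 and TNF are alarm cytokines that act through the transcription factor NF-kB. Of 42 genes of these families tested, 18 rose and none fell (median log2 FC 0.54), and 35 had a log2 FC above 0. The share called was 42.9%, against 11.6% of all genes tested. *il1b* (chromosome 3, 125917357 to 125923107), which codes for the cytokine IL-1β, measured 55.2 and 174 CPM in TRDKO56 and 44.8 and 148 CPM in WT56 at 6 hpa, against 6.06 and 6.09 CPM in TRDKO56 and 13.5 and 12.6 CPM in WT56 at 0 hpa (log2 FC 3.54, SE 0.61, FDR 0.00484). The groups did not overlap, and in both genotypes replicate 2 had about 3 times the level of replicate 1 at 6 hpa. The decoy receptor *il1r2* (chromosome 2, 110647448 to 110661831) measured 34.8 and 32.3 CPM in TRDKO56 and 11.8 and 27.7 CPM in WT56 at 6 hpa, against 2.72 and 1.1 CPM in TRDKO56 and 1.6 and 1.53 CPM in WT56 at 0 hpa (log2 FC 3.98, SE 0.35, FDR 2.42e-05). *tnfrsf11b*, a soluble decoy receptor for the TNF family member RANKL, measured 2.57 to 13 CPM at 6 hpa, against 0.401 to 0.92 CPM at 0 hpa (log2 FC 3.33 ± 0.32, SE). *tnfrsf9*, a costimulatory receptor, measured 2.37 to 9.72 CPM at 6 hpa, against 0 to 1.23 CPM at 0 hpa (log2 FC 3.39 ± 0.77, SE), and the death receptor *fas* measured 68.5 to 112 CPM at 6 hpa, against 39.8 to 42.9 CPM at 0 hpa (log2 FC 1.16 ± 0.16, SE). Both agonist and decoy components of the IL-1 system were thus among the genes that rose.

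Chemokines are small secreted proteins that attract leukocytes. Of 19 chemokine and receptor genes tested, 7 rose and 1 fell, and the median log2 FC was 0.03 (-0.03 with upper-quartile scaling). The share called was 42.1%, against 11.6% of all genes tested. *cxcl8* (chromosome 1, 80026966 to 80030008), which codes for the neutrophil attractant IL-8, measured 127 and 179 CPM in TRDKO56 and 99.8 and 205 CPM in WT56 at 6 hpa, against 9.89 and 10.8 CPM in TRDKO56 and 26.5 and 26.4 CPM in WT56 at 0 hpa (log2 FC 3.19, SE 0.37, FDR 0.000651). Its 0 hpa level was lower in TRDKO56 than in WT56, and the groups did not overlap between times. *ccl4*, a chemokine for monocytes and lymphocytes, measured 5.23 to 10.7 CPM at 6 hpa, against 0 to 1.1 CPM at 0 hpa (log2 FC 3.52 ± 0.40, SE). Of the receptors, *cxcr2*, which binds IL-8, measured 2.96 to 6.32 CPM at 6 hpa, against 0.338 to 1.48 CPM at 0 hpa (log2 FC 2.67 ± 0.40, SE), and *cxcr3* measured 46.6 and 31 CPM in TRDKO56 and 19.7 and 24.5 CPM in WT56 at 6 hpa, against 3.21 and 2.96 CPM in TRDKO56 and 2.5 and 0.92 CPM in WT56 at 0 hpa (log2 FC 3.57, SE 0.22, FDR 4.12e-07). *ccl27*, a chemokine of skin, was the member that fell (52.1 to 94.1 CPM at 6 hpa, against 128 to 155 CPM at 0 hpa, log2 FC -1.06 ± 0.17, SE), and it lost its call without replicate 2 at 6 hpa of TRDKO56 (log2 FC -0.99) or of WT56 (-0.92).

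Among the other cytokine genes 5 of 34 tested rose and 3 fell (median log2 FC 0.24), and 5 fell without replicate 1 of WT56 at 6 hpa. *il5ra* (chromosome 4, 129828651 to 129864167), the binding chain of the IL-5 receptor of eosinophils, measured 62.9 and 75.8 CPM in TRDKO56 and 49.1 and 77.2 CPM in WT56 at 6 hpa, against 7.79 and 9.64 CPM in TRDKO56 and 7.01 and 7.36 CPM in WT56 at 0 hpa (log2 FC 3.05, SE 0.17, FDR 1.73e-07). *csf2rb*, the signalling chain that this receptor shares, measured 41.7 to 79.9 CPM at 6 hpa, against 17.2 to 25.5 CPM at 0 hpa (log2 FC 1.55 ± 0.13, SE), and *il4r* measured 185 to 209 CPM at 6 hpa, against 62.8 to 93.9 CPM at 0 hpa (log2 FC 1.34 ± 0.13, SE). No library at 6 hpa overlapped with one at 0 hpa in the 3 genes. Of the whole list 23.5% was called, against 11.6% of all genes tested.

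All 14 neutrophil markers that were tested rose, with a median log2 FC of 2.72, whereas 5.88% of all genes tested rose. No marker overlapped between the groups, and the same held for 31.8% of all genes tested. The summed level of the markers was 996 to 1785 CPM at 6 hpa, against 259 to 319.5 CPM at 0 hpa. A large part of this sum was 1 gene of the list, the gelatinase gene *mmp9.1*. It measured 462 to 863 CPM at 6 hpa, against 56.1 to 98.7 CPM at 0 hpa. *mpo* (chromosome 2, 42893016 to 42910615), which codes for the granule enzyme myeloperoxidase, measured 169 and 157 CPM in TRDKO56 and 67 and 90.9 CPM in WT56 at 6 hpa, against 27.3 and 41.4 CPM in TRDKO56 and 20.1 and 16.3 CPM in WT56 at 0 hpa (log2 FC 2.17, SE 0.16, FDR 1.36e-06). *mmp25*, a membrane-bound protease of leukocytes, measured 35.5 and 35.1 CPM in TRDKO56 and 13.9 and 24.9 CPM in WT56 at 6 hpa, against 2.35 and 3.89 CPM in TRDKO56 and 2.9 and 1.84 CPM in WT56 at 0 hpa (log2 FC 3.23, SE 0.24, FDR 2.80e-06). *mmp8*, neutrophil collagenase, had 56 and 68 counts in TRDKO56 and 16 and 29 counts in WT56 at 6 hpa, against 1 and 2 counts in TRDKO56 and 3 and 1 counts in WT56 at 0 hpa, which is at least 8.23-fold higher. In *mpo* both libraries of TRDKO56 lay above both of WT56 at 6 hpa.

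The pan-leukocyte gene *ptprc* (chromosome 4, 111348510 to 111388844), which codes for CD45, measured 81.1 and 72.4 CPM in TRDKO56 and 44.3 and 58.6 CPM in WT56 at 6 hpa, against 25 and 28.2 CPM in TRDKO56 and 26.4 and 23 CPM in WT56 at 0 hpa (log2 FC 1.30, SE 0.14, FDR 2.38e-05). Among 24 leukocyte and macrophage markers tested 8 rose and none fell (median log2 FC 0.75), which is 33.3% against 11.6% of all genes tested. Of the 24, 17 had a log2 FC above 0. At the FDR limit alone 16 were higher and 3 lower, and 1 fell with upper-quartile scaling. The summed level of these markers was 1716 to 2233 CPM at 6 hpa, against 1319 to 1473 CPM at 0 hpa. *plek* (pleckstrin, 20.03 to 34.6 CPM at 6 hpa, against 4.01 to 5.24 CPM at 0 hpa), *tyrobp* (an adaptor of myeloid receptors, 18.3 to 31.4 CPM at 6 hpa, against 5.52 to 11 CPM at 0 hpa) and *lcp1* (L-plastin, 113 to 190.1 CPM at 6 hpa, against 46.9 to 67.9 CPM at 0 hpa) were among those that rose. Of 11 lymphocyte markers tested, none passed the limits in edgeR or DESeq2, and 1 was higher at the FDR limit alone. Of 16 erythroid markers 1 rose and none fell, which is 6.25% against 11.6% of all genes tested. Endothelial markers did not pass the limits in either tool (21 tested, 1 lower with upper-quartile scaling, 2 higher and 5 lower at the FDR limit alone). These marker lists come from mammalian and frog cell types and were not checked against sorted cells here.

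The NADPH oxidase of phagocytes makes superoxide, and related oxidases are present in epithelia. Of 15 oxidase genes tested 7 rose and 2 fell (median log2 FC 0.82), which is 60.0% against 11.6% of all genes tested. *cybb*, the catalytic subunit of the phagocyte enzyme, measured 81.6 and 68.2 CPM in TRDKO56 and 43.2 and 65.4 CPM in WT56 at 6 hpa, against 10.9 and 10.7 CPM in TRDKO56 and 10.3 and 9.2 CPM in WT56 at 0 hpa (log2 FC 2.64, SE 0.16, FDR 3.07e-07). The gene of a cytosolic subunit, *ncf1*, measured 34.8 to 83.2 CPM at 6 hpa, against 6.41 to 10.3 CPM at 0 hpa (log2 FC 2.78 ± 0.19, SE). *cybb* and *ncf1* are also neutrophil markers, and 4 of the 15 oxidase genes are on both lists. Of the other 11, 3 rose and 2 fell. Among these rises *rac2* is also on the list of leukocyte and macrophage markers. The non-phagocytic *nox4* measured 6.22 to 12.1 CPM at 6 hpa, against 19.7 to 26.1 CPM at 0 hpa (log2 FC -1.22 ± 0.22, SE), which is a fall. *nox1* measured 3.45 to 13.7 CPM at 6 hpa, against 0.247 to 2.15 CPM at 0 hpa (log2 FC 2.64 ± 0.63, SE) and lost its call without TRDKO56 at 0 hpa, replicate 2 (FDR 0.0522). How far the summed neutrophil markers account for these changes was not tested.

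**Figure D2:**
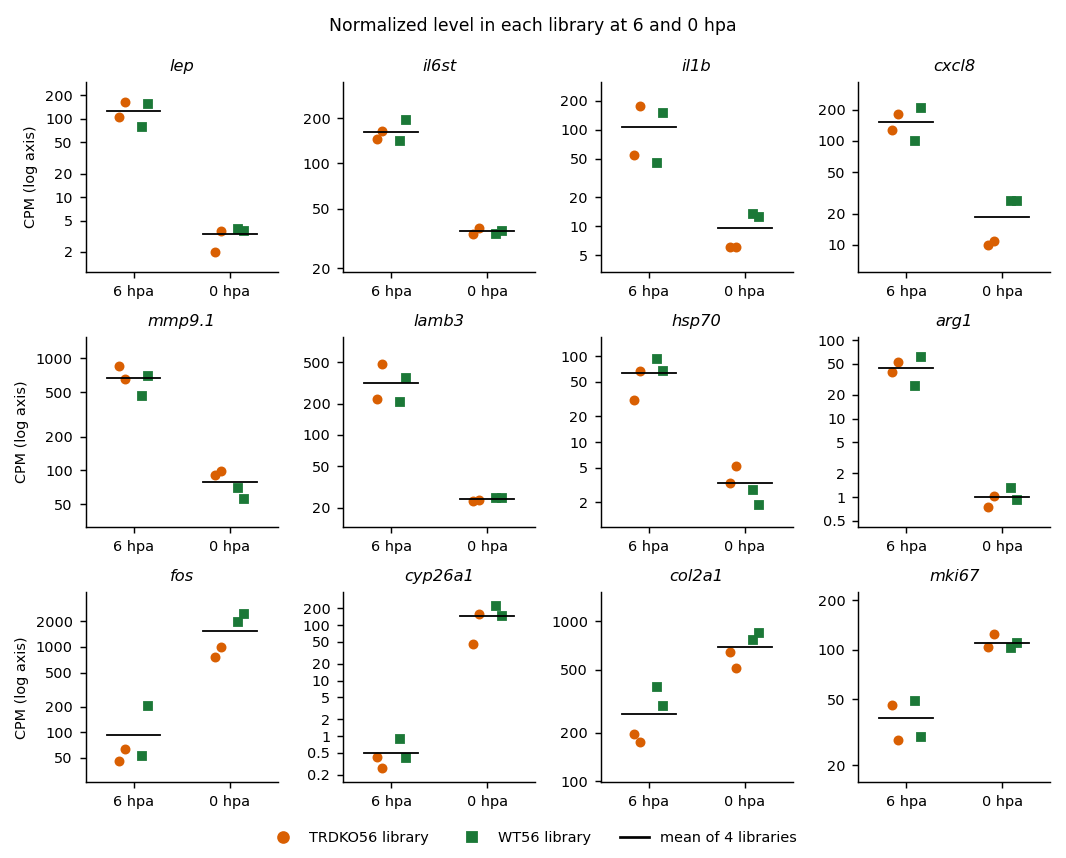
Normalized level in CPM (log axis, own scale in each panel) of 12 genes in each library, with 6 hpa left of 0 hpa. Orange circles are TRDKO56 libraries, green squares WT56 libraries, and black bars the mean of the 4 libraries. In all 12 genes the libraries at 6 hpa are separate from those at 0 hpa, and *fos* and *cxcl8* show a gap between the genotypes at 0 hpa.

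Proteases that degrade matrix were a further group with large rises. Of 40 proteases and inhibitors tested 14 rose and 2 fell (median log2 FC 0.39), which is 40.0% against 11.6% of all genes tested. *mmp1* (chromosome 2, 161618455 to 161627175), an interstitial collagenase, measured 719 and 1515 CPM in TRDKO56 and 1585 and 2435 CPM in WT56 at 6 hpa, against 83.7 and 61.2 CPM in TRDKO56 and 209 and 238 CPM in WT56 at 0 hpa (log2 FC 3.56, SE 0.30, FDR 3.60e-05). *mmp13l* (chromosome 2, 161584669 to 161592069) measured 19 and 37.3 CPM in TRDKO56 and 27.9 and 30.5 CPM in WT56 at 6 hpa, against 1.36 and 1.27 CPM in TRDKO56 and 1.7 and 3.37 CPM in WT56 at 0 hpa (log2 FC 4.08, SE 0.29, FDR 2.62e-06). *mmp19* (chromosome 2, 138309797 to 138331032) measured 83.6 and 135 CPM in TRDKO56 and 69 and 92.7 CPM in WT56 at 6 hpa, against 7.79 and 6.68 CPM in TRDKO56 and 5.41 and 8.59 CPM in WT56 at 0 hpa (log2 FC 3.80, SE 0.21, FDR 4.57e-07). Every library at 6 hpa was above those at 0 hpa in these genes. The gelatinase gene *mmp9.1* (chromosome 10, 19946664 to 19955013) measured 863 and 659.6 CPM in TRDKO56 and 462 and 694 CPM in WT56 at 6 hpa, against 90.7 and 98.7 CPM in TRDKO56 and 70.2 and 56.1 CPM in WT56 at 0 hpa (log2 FC 3.09, SE 0.16, FDR 1.70e-07). Its neighbour *mmp9.2* measured 45.4 and 111 CPM in TRDKO56 and 37.1 and 43.8 CPM in WT56 at 6 hpa, against 3.71 and 2.88 CPM in TRDKO56 and 8.81 and 6.75 CPM in WT56 at 0 hpa (log2 FC 3.43, SE 0.56, FDR 0.00379). Both copies rose, and reads that fit either copy could have been split between them or left out in the counting. In the other direction *mmp3* measured 14.6 to 27.6 CPM at 6 hpa, against 42.9 to 63.7 CPM at 0 hpa (log2 FC -1.54 ± 0.17, SE). *mmp11* measured 2.77 to 6.84 CPM at 6 hpa, against 5.21 to 15.8 CPM at 0 hpa (log2 FC -1.01 ± 0.18, SE). Its values overlapped and its call was lost under 11 of the 19 alternatives, among them the fits without WT56 at 0 hpa, replicate 1 (log2 FC -0.96), WT56 at 6 hpa, replicate 2 (-0.99) or TRDKO56 at 0 hpa, replicate 2 (-0.88). Of the proteases tested 4 are also neutrophil markers, and among the other 36, 10 rose and 2 fell.

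Laminin-332 is the laminin of epidermal hemidesmosomes, and keratinocytes lay it down as they migrate over a wound. Its β3 chain gene *lamb3* (chromosome 2, 50735036 to 50792656) measured 220.1 and 484 CPM in TRDKO56 and 205 and 349 CPM in WT56 at 6 hpa, against 23.4 and 23.5 CPM in TRDKO56 and 24.7 and 24.8 CPM in WT56 at 0 hpa (log2 FC 3.70, SE 0.29, FDR 4.02e-05). At 0 hpa *lamb3* differed by less than 2 CPM between the 4 libraries, and at 6 hpa replicate 2 was higher than replicate 1 in both genotypes. *itga6*, which codes for the integrin chain that binds this laminin, measured 730.2 to 1801 CPM at 6 hpa, against 286 to 827 CPM at 0 hpa (log2 FC 1.37 ± 0.20, SE), and the groups overlapped, with WT56 above TRDKO56 in the same replicate at each time. *met*, the receptor of hepatocyte growth factor, measured 62.4 to 76.1 CPM at 6 hpa, against 15.3 to 26.7 CPM at 0 hpa (log2 FC 1.70 ± 0.14, SE). Over the list of provisional matrix and migration genes 8 of 46 tested rose and 2 fell (median log2 FC 0.16), and 5 rose without replicate 2 of TRDKO56 at 6 hpa. The 2 that fell were *lamb4*, another laminin β chain (64.1 and 30.8 CPM in TRDKO56 and 58.8 and 30.8 CPM in WT56 at 6 hpa, against 156 and 134 CPM in TRDKO56 and 233 and 352 CPM in WT56 at 0 hpa, log2 FC -2.15 ± 0.39, SE), and *col7a1*, the collagen of anchoring fibrils (162 to 297 CPM at 6 hpa, against 510.0 to 806 CPM at 0 hpa, log2 FC -1.29 ± 0.21, SE).

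Of 42 epidermal markers tested 7 rose and 3 fell (5 fell without replicate 1 at 6 hpa of either genotype), and their summed level was 16670.0 to 21180.0 CPM at 6 hpa, against 16770.0 to 24250.0 CPM at 0 hpa. *krt17* (chromosome 10, 7624418 to 7629423), a keratin that mammalian keratinocytes make in wounds, measured 144 and 253 CPM in TRDKO56 and 54.6 and 50.4 CPM in WT56 at 6 hpa, against 11.4 and 24 CPM in TRDKO56 and 4.61 and 11.7 CPM in WT56 at 0 hpa (log2 FC 3.23, SE 0.37, FDR 0.000596). Both TRDKO56 libraries exceeded both WT56 libraries at 6 hpa. *krt23* measured 23.5 to 37.9 CPM at 6 hpa, against 6.68 to 16.6 CPM at 0 hpa (log2 FC 1.48 ± 0.22, SE), *krt18.1* measured 358 to 807 CPM at 6 hpa, against 123 to 217 CPM at 0 hpa (log2 FC 1.62 ± 0.17, SE), and *cdh1*, which codes for E-cadherin, measured 734 to 1028 CPM at 6 hpa, against 255 to 552 CPM at 0 hpa (log2 FC 1.31 ± 0.17, SE). In contrast *krt18.3* measured 4.94 to 8.47 CPM at 6 hpa, against 17.3 to 23.9 CPM at 0 hpa (log2 FC -1.60 ± 0.16, SE). Keratin genes are a family of similar sequences, and reads shared by copies could shift values among them.

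Genes of the mature matrix moved the other way. Of 45 collagen and basement membrane genes tested 10 fell and none rose (median log2 FC -0.47), and 5 had a log2 FC above 0. The share called was 22.2%, against 11.6% of all genes tested. *col14a1* (chromosome 6, 138467720 to 138568517), a collagen that associates with fibrils, measured 162 and 129 CPM in TRDKO56 and 225 and 109 CPM in WT56 at 6 hpa, against 544 and 478 CPM in TRDKO56 and 472 and 586 CPM in WT56 at 0 hpa (log2 FC -1.73, SE 0.20, FDR 0.000104). *col4a5*, a chain of basement membrane collagen IV, measured 58.5 and 47.8 CPM in TRDKO56 and 89.3 and 50.8 CPM in WT56 at 6 hpa, against 173 and 176 CPM in TRDKO56 and 209 and 282 CPM in WT56 at 0 hpa (log2 FC -1.76, SE 0.17, FDR 2.14e-05). *npnt* (nephronectin, 14.2 to 50.4 CPM at 6 hpa, against 115 to 161 CPM at 0 hpa, log2 FC -2.05 ± 0.41, SE) and *frem2* (22 to 53.4 CPM at 6 hpa, against 109 to 169 CPM at 0 hpa, log2 FC -1.85 ± 0.28, SE), proteins of basement membranes, fell as well. The groups did not overlap in any of these 4. The fibroblast marker *lum* (lumican) measured 750.2 to 1462 CPM at 6 hpa, against 2257 to 2535 CPM at 0 hpa (log2 FC -1.09 ± 0.20, SE), and lost its call without replicate 2 at 6 hpa of TRDKO56 (log2 FC -0.93) or WT56 (-0.99). Among 15 fibroblast markers tested 1 fell and 1 rose, which is 13.3% against 11.6% of all genes tested. The rise was in *fap*, fibroblast activation protein (96.8 and 135 CPM in TRDKO56 and 69.4 and 116 CPM in WT56 at 6 hpa, against 26 and 30.3 CPM in TRDKO56 and 25.2 and 27.3 CPM in WT56 at 0 hpa, log2 FC 1.93 ± 0.17, SE).

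The notochord runs through the tail and has a sheath of cartilage-type collagens. *col2a1* (chromosome 2, 143714087 to 143762160), the main collagen of that sheath, measured 197 and 176 CPM in TRDKO56 and 389.9 and 296 CPM in WT56 at 6 hpa, against 647 and 513 CPM in TRDKO56 and 769 and 847 CPM in WT56 at 0 hpa (log2 FC -1.43, SE 0.14, FDR 1.48e-05). The groups did not overlap, and both TRDKO56 libraries were below both WT56 libraries at each time. *matn3* (matrilin 3) measured 2.1 to 6.71 CPM at 6 hpa, against 7.36 to 22.6 CPM at 0 hpa (log2 FC -1.56 ± 0.23, SE). *col9a2*, a collagen of the same fibrils, measured 64.5 and 43.3 CPM in TRDKO56 and 107 and 95.8 CPM in WT56 at 6 hpa, against 101 and 91.7 CPM in TRDKO56 and 178 and 169 CPM in WT56 at 0 hpa (log2 FC -0.81, FDR 0.000397), so that its change was smaller than the limit and its groups overlapped. *sox9* (chromosome 10, 30569409 to 30597270), the transcription factor that drives these collagens, measured 8.81 and 10.7 CPM in TRDKO56 and 12.2 and 10.6 CPM in WT56 at 6 hpa, against 24.6 and 15.3 CPM in TRDKO56 and 18.6 and 18.4 CPM in WT56 at 0 hpa and was likewise under the limit (log2 FC -0.87, FDR 0.00172). Over 28 notochord and cartilage matrix genes tested 3 fell and 1 rose (median log2 FC -0.58), which is 14.3% against 11.6% of all genes tested. Without replicate 1 of TRDKO56 at 6 hpa 6 fell and 3 rose, without replicate 1 of WT56 at 0 hpa 5 fell, and 2 rose without replicate 1 of WT56 at 6 hpa or replicate 2 of TRDKO56 at 6 or 0 hpa. The summed level of 8 notochord markers was 411 to 847 CPM at 6 hpa, against 873 to 1635 CPM at 0 hpa. Only *col2a1* among them was a DEG (3 fell and 1 rose without replicate 1 of TRDKO56 at 6 hpa, and 1 rose without that of WT56). The log2 FC was positive, without passing the test, in *tbxt* (4.1 to 8.5 CPM at 6 hpa, against 2.45 to 4.91 CPM at 0 hpa, log2 FC 0.60, FDR 0.121) and *tbxt.2* (19 to 56.1 CPM at 6 hpa, against 12.6 to 34.2 CPM at 0 hpa, log2 FC 0.87, FDR 0.0779), copies of the notochord factor Brachyury that were named after their values were seen. Whether the pieces held less notochord at 6 hpa was not tested.

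Retinoic acid is made from retinol through retinaldehyde and is degraded by CYP26 enzymes. *cyp26a1* (chromosome 7, 25306417 to 25310610) measured 0.428 and 0.263 CPM in TRDKO56 and 0.888 and 0.395 CPM in WT56 at 6 hpa, against 45.6 and 161 CPM in TRDKO56 and 216 and 148 CPM in WT56 at 0 hpa. All 4 libraries at 6 hpa were below 1 CPM, although the 0 hpa values differed by more than 4 times among themselves (log2 FC -8.15, SE 0.62, FDR 0.000141). *cyp26b1* (chromosome 1, 14761160 to 14795501), the second enzyme of this kind, measured 73.7 and 84.4 CPM in TRDKO56 and 71.4 and 78.9 CPM in WT56 at 6 hpa, against 354 and 428 CPM in TRDKO56 and 534 and 339.7 CPM in WT56 at 0 hpa (log2 FC -2.42, SE 0.15, FDR 5.02e-07). *dhrs3* (chromosome 7, 95727920 to 95744275), which turns retinaldehyde back into retinol, measured 9.15 and 13.9 CPM in TRDKO56 and 16.1 and 15.1 CPM in WT56 at 6 hpa, against 60.2 and 78.3 CPM in TRDKO56 and 121 and 78.8 CPM in WT56 at 0 hpa (log2 FC -2.64, SE 0.17, FDR 1.24e-06). The 3 genes that lower retinoic acid thus fell with no overlap. On the side of synthesis, *aldh1a3* (chromosome 3, 115653733 to 115679282), which oxidizes retinaldehyde to retinoic acid, measured 136 and 261 CPM in TRDKO56 and 90.1 and 160.2 CPM in WT56 at 6 hpa, against 12.1 and 14.1 CPM in TRDKO56 and 8.21 and 8.59 CPM in WT56 at 0 hpa (log2 FC 3.91, SE 0.27, FDR 1.02e-05). *dhrs9*, which can oxidize retinol in mammals, measured 22.8 and 26.8 CPM in TRDKO56 and 17.9 and 42.2 CPM in WT56 at 6 hpa, against 4.33 and 1.02 CPM in TRDKO56 and 2.7 and 4.29 CPM in WT56 at 0 hpa (log2 FC 3.27, SE 0.43, FDR 0.00081). These 5 were the only DEGs among 22 genes of the pathway tested, and the median log2 FC of the list was -0.04. At the FDR limit alone 5 were higher and 8 lower. The related genes *aldh1a1* and *aldh1a2* were not DEGs. Before scaling they had 3464 and 107 counts in all at 6 hpa, against 4331 and 139 at 0 hpa. Retinoic acid itself was not measured.

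Of 50 Wnt genes tested 7 fell and none rose (median log2 FC -0.33), beside 11.6% of all genes tested that were called in either direction. They included the ligands *wnt5b* (3.34 and 5.43 CPM in TRDKO56 and 3.75 and 3.75 CPM in WT56 at 6 hpa, against 15 and 12.9 CPM in TRDKO56 and 12.6 and 13.2 CPM in WT56 at 0 hpa, log2 FC -1.72 ± 0.18, SE), *wnt7b* (3.16 to 7.3 CPM at 6 hpa, against 12.9 to 22.1 CPM at 0 hpa, log2 FC -1.57 ± 0.24, SE) and *wnt10b* (8.59 to 18.7 CPM at 6 hpa, against 32.8 to 45.4 CPM at 0 hpa, log2 FC -1.53 ± 0.25, SE), and the inhibitor *dkk1* (3.93 to 15.2 CPM at 6 hpa, against 26.1 to 59.2 CPM at 0 hpa, log2 FC -1.99 ± 0.40, SE). In none of these did the groups overlap. Of 32 Notch genes tested 4 fell and none rose, and the 4 were copies of *hes5*, a target gene of the pathway. The share called was 12.5%, against 11.6% of all genes tested. Only 2 fell without replicate 2 of WT56 at 0 hpa or either TRDKO56 library at 0 hpa. The same number fell without replicate 2 of TRDKO56 at 6 hpa. *hes5.10* measured 2.57 to 16.5 CPM at 6 hpa, against 23 to 61.5 CPM at 0 hpa (log2 FC -2.30 ± 0.47, SE). Some copies had few counts before scaling, with 25 (*hes5.2*) and 23 (*hes5.5*) in all at 6 hpa, against 50 and 44 at 0 hpa. Another copy, *hes5.3*, changed less (690 counts in all at 6 hpa, against 780 at 0 hpa). The copies lie on chromosome 7 and can share reads. Of 15 hedgehog genes tested none passed the limits in edgeR or DESeq2, 1 fell with upper-quartile scaling, and 4 were lower at the FDR limit alone.

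Among 28 FGF genes tested 2 rose and 3 fell (median log2 FC -0.39), which is 17.9% against 11.6% of all genes tested. Without replicate 2 of TRDKO56 at 6 hpa 1 FGF gene fell. The ligand *fgf10*, which signals from mesenchyme to epithelium, measured 6.41 and 11.4 CPM in TRDKO56 and 8.09 and 8.79 CPM in WT56 at 6 hpa, against 3.59 and 3.81 CPM in TRDKO56 and 3.1 and 2.76 CPM in WT56 at 0 hpa (log2 FC 1.36, SE 0.22, FDR 0.000457). *fgf2* measured 11.1 to 21.8 CPM at 6 hpa, against 3.8 to 6.75 CPM at 0 hpa (log2 FC 1.41 ± 0.26, SE). The carrier protein gene *fgfbp2* measured 147 and 103 CPM in TRDKO56 and 148 and 79.6 CPM in WT56 at 6 hpa, against 469.5 and 389 CPM in TRDKO56 and 471 and 532 CPM in WT56 at 0 hpa (log2 FC -1.96, SE 0.20, FDR 4.23e-05). The 2 ligands were higher in each library at 6 hpa than in any at 0 hpa, and *fgfbp2* was lower. Among 49 genes of the BMP, TGF-β and activin families 2 rose (4 without replicate 1 of WT56 at 6 hpa) and 6 fell. The share called was 16.3%, against 11.6% of all genes tested. The activin genes split. *inhba* (chromosome 6, 57854950 to 57872480), the subunit of activin A, measured 46.4 and 43.7 CPM in TRDKO56 and 26.3 and 41.8 CPM in WT56 at 6 hpa, against 4.2 and 3.55 CPM in TRDKO56 and 4.51 and 4.6 CPM in WT56 at 0 hpa (log2 FC 3.25, SE 0.20, FDR 3.34e-07). In contrast *inhbb* (chromosome 9, 89115007 to 89123266), the subunit of activin B, measured 0.77 and 0.526 CPM in TRDKO56 and 0.592 and 0.395 CPM in WT56 at 6 hpa, against 3.59 and 5.41 CPM in TRDKO56 and 7.71 and 7.97 CPM in WT56 at 0 hpa (log2 FC -3.34, SE 0.32, FDR 9.97e-06). *fst*, which codes for the activin antagonist follistatin, measured 18.2 and 35.8 CPM in TRDKO56 and 23 and 30.9 CPM in WT56 at 6 hpa, against 4.57 and 6.09 CPM in TRDKO56 and 9.81 and 8.89 CPM in WT56 at 0 hpa (log2 FC 1.92, SE 0.26, FDR 0.000266). *gdf11.1*, a related ligand, measured 1.03 to 2.27 CPM at 6 hpa, against 4.57 to 8.51 CPM at 0 hpa (log2 FC -1.68 ± 0.25, SE). All 4 were without overlap between the groups.

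Of 44 heat shock and chaperone genes tested 10 rose and 1 fell (median log2 FC 0.47), and 38 had a log2 FC above 0. *hsp70* (chromosome 8, 75108296 to 75111281), an inducible chaperone, measured 31.1 and 67.1 CPM in TRDKO56 and 92.6 and 66.8 CPM in WT56 at 6 hpa, against 3.34 and 5.24 CPM in TRDKO56 and 2.8 and 1.84 CPM in WT56 at 0 hpa (log2 FC 4.09, SE 0.42, FDR 0.000334). *hsp30e* (chromosome 7, 103102033 to 103103008), a small heat shock protein, measured 7.7 and 18.7 CPM in TRDKO56 and 34.1 and 28.4 CPM in WT56 at 6 hpa, against 1.11 and 0.846 CPM in TRDKO56 and 0.20 and 0.92 CPM in WT56 at 0 hpa (log2 FC 4.73, SE 0.53, FDR 0.000297). The neighbouring copies *hsp30c* (3.51 to 12.7 CPM at 6 hpa, against 0 to 0.618 CPM at 0 hpa) and *hsp30d* (3.08 to 12.6 CPM at 6 hpa, against 0.371 to 0.761 CPM at 0 hpa) rose as well, and reads could be shared among the 3. The exception was *hspa2* (14.5 to 33.6 CPM at 6 hpa, against 74.3 to 100.1 CPM at 0 hpa, log2 FC -1.95 ± 0.25, SE), a relative of *hsp70*. Of 50 genes of oxidative and unfolded protein stress 8 rose and 1 fell. The share called in this list was above the 11.6% of all genes tested. *hmox1* (chromosome 4, 115580468 to 115587518), heme oxygenase 1, measured 93.2 and 139 CPM in TRDKO56 and 77.1 and 169 CPM in WT56 at 6 hpa, against 33.8 and 31.5 CPM in TRDKO56 and 20.9 and 13.8 CPM in WT56 at 0 hpa (log2 FC 2.27, SE 0.33, FDR 0.0017). *txnrd1* (thioredoxin reductase) had 61 to 148 counts per library at 6 hpa, against 1 to 3 at 0 hpa, and was at least 20.6-fold higher. *slc7a11*, a cystine transporter, measured 79.5 to 101 CPM at 6 hpa, against 27.1 to 51.6 CPM at 0 hpa (log2 FC 1.46 ± 0.20, SE), and *cat.3*, a catalase gene, measured 42.2 to 102 CPM at 6 hpa, against 9.81 to 16.6 CPM at 0 hpa (log2 FC 2.39 ± 0.17, SE). *gclc*, the enzyme that starts glutathione synthesis, measured 25.8 to 31.6 CPM at 6 hpa, against 53.4 to 71.8 CPM at 0 hpa (log2 FC -1.06 ± 0.13, SE) and lost its call without WT56 at 0 hpa, replicate 1 (log2 FC -0.92). No overlap was seen in any of these genes.

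Of 40 hypoxia and glycolysis genes tested 4 rose and 2 fell (median log2 FC 0.27). The share called was not far above the 11.6% of all genes tested. *hk2* (chromosome 3, 46540939 to 46570587), the hexokinase that traps glucose in the cell, measured 42.1 and 42.7 CPM in TRDKO56 and 14.5 and 23.2 CPM in WT56 at 6 hpa, against 3.34 and 5.07 CPM in TRDKO56 and 2.3 and 2.45 CPM in WT56 at 0 hpa (log2 FC 3.19, SE 0.20, FDR 4.72e-07). The glucose transporter gene *slc2a3* measured 42.8 and 42.9 CPM in TRDKO56 and 24.4 and 45 CPM in WT56 at 6 hpa, against 3.59 and 4.14 CPM in TRDKO56 and 4.11 and 3.99 CPM in WT56 at 0 hpa (log2 FC 3.29, SE 0.21, FDR 5.56e-07). *pfkfb4*, a regulator of glycolysis, measured 129 to 217 CPM at 6 hpa, against 50.9 to 80.3 CPM at 0 hpa (log2 FC 1.44 ± 0.12, SE). *ldha* (lactate dehydrogenase) measured 110.1 to 306 CPM at 6 hpa, against 57.3 to 113 CPM at 0 hpa with overlapping groups (log2 FC 1.15 ± 0.16, SE). *epas1*, which codes for the hypoxia-inducible factor HIF-2α, measured 6.41 to 12 CPM at 6 hpa, against 13.2 to 25.9 CPM at 0 hpa (log2 FC -1.17 ± 0.24, SE).

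Arginine is used by arginase to make ornithine, the precursor of polyamines, and macrophages and neutrophils of several species express arginase. *arg1* (chromosome 5, 69810183 to 69822876) measured 39.4 and 52.4 CPM in TRDKO56 and 26.2 and 60.7 CPM in WT56 at 6 hpa, against 0.742 and 1.02 CPM in TRDKO56 and 1.3 and 0.92 CPM in WT56 at 0 hpa (log2 FC 5.43, SE 0.35, FDR 3.66e-06). *acod1*, which makes the antimicrobial metabolite itaconate in mammalian macrophages, measured 25.6 and 38.6 CPM in TRDKO56 and 11.5 and 22 CPM in WT56 at 6 hpa, against 2.97 and 3.04 CPM in TRDKO56 and 2.3 and 1.53 CPM in WT56 at 0 hpa (log2 FC 3.25, SE 0.26, FDR 4.25e-06). *ass1*, which regenerates arginine, measured 26 to 34.8 CPM at 6 hpa, against 8.81 to 12.1 CPM at 0 hpa (log2 FC 1.61 ± 0.15, SE). There was no overlap in the 3. *odc1* (chromosome 5, 138453439 to 138459104), the first enzyme of polyamine synthesis, measured 478 and 571 CPM in TRDKO56 and 490.1 and 705 CPM in WT56 at 6 hpa, against 242 and 294 CPM in TRDKO56 and 348 and 339.7 CPM in WT56 at 0 hpa and stayed under the limit of the fold change (log2 FC 0.88, FDR 0.000387) without overlap. *azin2*, an activator of that enzyme, was far lower in TRDKO56 than in WT56 at 0 hpa (696 and 1724 CPM in TRDKO56 and 1267 and 3043 CPM in WT56 at 6 hpa, against 46.6 and 117 CPM in TRDKO56 and 864 and 931 CPM in WT56 at 0 hpa). Its call (log2 FC 2.56, FDR 0.0382) was lost without any 1 of 5 libraries (FDR 0.0540 to 0.154). In all 6 of 21 genes of this list rose, which is 28.6% against 11.6% of all genes tested.

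Complement and antimicrobial genes gave 11 rises and 1 fall among 38 tested. *camp* (cathelicidin) measured 13.5 and 9.72 CPM in TRDKO56 and 4.84 and 7.31 CPM in WT56 at 6 hpa, against 0.989 and 0.93 CPM in TRDKO56 and 0.801 and 0 CPM in WT56 at 0 hpa (log2 FC 3.51, SE 0.33, FDR 8.62e-06). *c5ar1*, the receptor of the complement fragment C5a, measured 34.5 and 40.6 CPM in TRDKO56 and 29.6 and 54.3 CPM in WT56 at 6 hpa, against 8.53 and 7.44 CPM in TRDKO56 and 8.21 and 7.97 CPM in WT56 at 0 hpa (log2 FC 2.30, SE 0.19, FDR 3.52e-06). *c3*, the central complement protein, measured 8.38 to 27.2 CPM at 6 hpa, against 1.23 to 7.02 CPM at 0 hpa (log2 FC 2.27 ± 0.61, SE) and lost its call without either WT56 library at 0 hpa (FDR 0.0837 and 0.0511) or TRDKO56 at 6 hpa, replicate 2 (FDR 0.0760). *itln2*, an intelectin that binds microbial sugars, was the member that fell (9.68 to 21.5 CPM at 6 hpa, against 33.3 to 47.5 CPM at 0 hpa, log2 FC -1.44 ± 0.23, SE). Of 49 apoptosis and p53 genes tested 4 rose and none fell, which is 8.16% against 11.6% of all genes tested, and 2 rose without replicate 2 of TRDKO56 at 6 hpa. The largest of these rises was in *ripk3.1*, a kinase of necroptosis (21.6 and 23.2 CPM in TRDKO56 and 6.02 and 9.48 CPM in WT56 at 6 hpa, against 2.35 and 1.78 CPM in TRDKO56 and 1.5 and 2.15 CPM in WT56 at 0 hpa, log2 FC 2.98 ± 0.28, SE).

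**Figure D3:**
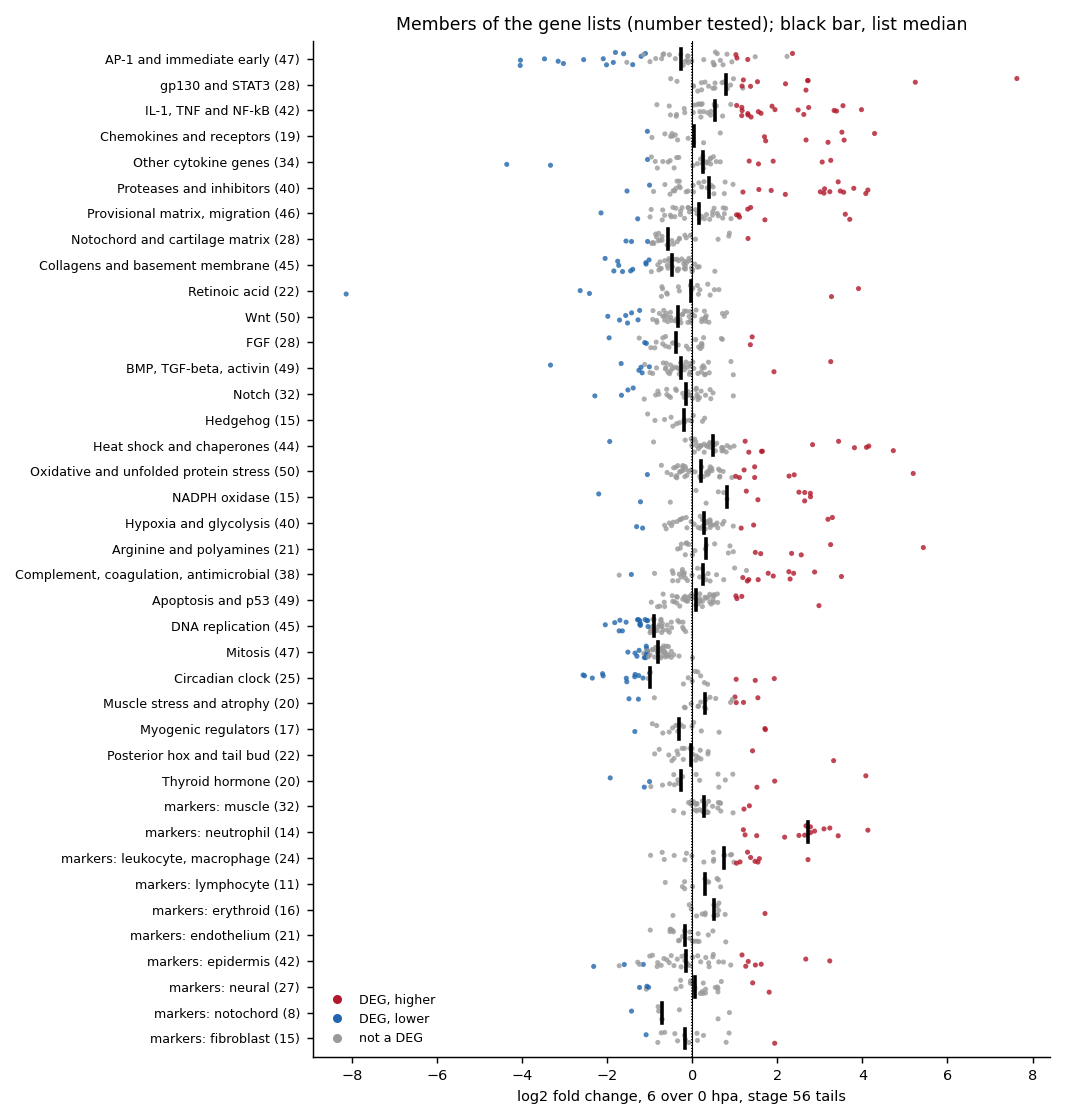
Log2 fold change (6 over 0 hpa) of each tested member of 29 role lists and 10 cell type marker lists, with the number tested in parentheses. Red points are DEGs that were higher and blue points DEGs that were lower at 6 hpa, grey points are other members, black bars are list medians and the dotted line is the median of all genes tested (-0.02). The neutrophil markers are all to the right, and the DNA replication genes are all to the left of 0.

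Of 45 DNA replication genes tested 16 fell, none rose and none had a log2 FC above 0 (median -0.90). The number that fell ran from 12 without replicate 2 of WT56 at 6 hpa to 26 without replicate 1 of WT56 at 6 hpa. *rrm2.2* (chromosome 5, 138181786 to 138187830), a subunit of the enzyme that makes deoxynucleotides, measured 12.1 and 6.75 CPM in TRDKO56 and 14.8 and 7.6 CPM in WT56 at 6 hpa, against 48.6 and 33.7 CPM in TRDKO56 and 45.6 and 43.2 CPM in WT56 at 0 hpa (log2 FC -2.05, SE 0.24, FDR 0.000117). *tyms* (thymidylate synthase) measured 5.3 and 2.98 CPM in TRDKO56 and 5.13 and 1.88 CPM in WT56 at 6 hpa, against 12.9 and 13.9 CPM in TRDKO56 and 15.8 and 11.3 CPM in WT56 at 0 hpa (log2 FC -1.83, SE 0.28, FDR 0.000421). *cdc45*, part of the replicative helicase, measured 1.23 to 3.06 CPM at 6 hpa, against 6.11 to 7.36 CPM at 0 hpa (log2 FC -1.72 ± 0.26, SE). Of 47 mitosis genes tested 11 fell and none rose (median -0.80). This count was 4 without replicate 2 of WT56 at 6 hpa, 5 without replicate 2 of TRDKO56 at 6 hpa, 6 without replicate 1 of TRDKO56 at 0 hpa, 17 without replicate 1 of WT56 at 6 hpa and 26 without replicate 1 of TRDKO56 at 6 hpa. *mki67* (chromosome 7, 23769787 to 23793694), which codes for the proliferation marker Ki-67, measured 46.6 and 28.3 CPM in TRDKO56 and 49 and 29.8 CPM in WT56 at 6 hpa, against 104 and 124 CPM in TRDKO56 and 103 and 110.1 CPM in WT56 at 0 hpa (log2 FC -1.52, SE 0.19, FDR 0.00014). *top2a* (topoisomerase II) measured 21 and 8.67 CPM in TRDKO56 and 29.4 and 13.6 CPM in WT56 at 6 hpa, against 39.1 and 34.8 CPM in TRDKO56 and 46.9 and 52.4 CPM in WT56 at 0 hpa (log2 FC -1.25, SE 0.31, FDR 0.0147). *mad2l1*, a spindle checkpoint gene, measured 2.02 to 5.13 CPM at 6 hpa, against 6.13 to 10.01 CPM at 0 hpa (log2 FC -1.35 ± 0.29, SE). The groups did not overlap in these 6 genes, and replicate 2 at 6 hpa was lower than replicate 1 in both genotypes in each of them. At the FDR limit alone 35 of the replication genes and 20 of the mitosis genes were lower.

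The circadian clock is a transcriptional loop in which BMAL1 (*arntl*) and its partners switch on the *per* and *cry* genes, whose products shut them off, and it drives output genes such as *dbp*. Of 25 clock genes tested 12 fell and 3 rose, which is 60.0% of the list, and the median log2 FC was -1.01. *dbp* (chromosome 7, 105021610 to 105063693) measured 5.13 and 5.26 CPM in TRDKO56 and 6.41 and 6.62 CPM in WT56 at 6 hpa, against 29.7 and 24.6 CPM in TRDKO56 and 46 and 42.3 CPM in WT56 at 0 hpa (log2 FC -2.57, SE 0.14, FDR 1.73e-07). *per1* (chromosome 3, 144427388 to 144461415) measured 16.6 and 21.8 CPM in TRDKO56 and 20.8 and 28.3 CPM in WT56 at 6 hpa, against 80.2 and 64.4 CPM in TRDKO56 and 105 and 142 CPM in WT56 at 0 hpa (log2 FC -2.11, SE 0.16, FDR 2.74e-06). *per2* (chromosome 5, 128085854 to 128124172) measured 21.5 and 16.2 CPM in TRDKO56 and 18 and 16 CPM in WT56 at 6 hpa, against 43.8 and 44.4 CPM in TRDKO56 and 42.7 and 54.6 CPM in WT56 at 0 hpa (log2 FC -1.36, SE 0.14, FDR 1.37e-05). All 3 were lower in every library at 6 hpa than in any at 0 hpa. *cry2* (9.78 to 13.3 CPM at 6 hpa, against 33.4 to 69.6 CPM at 0 hpa, log2 FC -2.10 ± 0.18, SE), *nr1d2* (17.8 to 21.5 CPM at 6 hpa, against 59.8 to 142 CPM at 0 hpa, log2 FC -2.36 ± 0.18, SE) and *hlf* (2.19 to 7.6 CPM at 6 hpa, against 22.1 to 45.7 CPM at 0 hpa, log2 FC -2.54 ± 0.22, SE) fell as well. *nr1d1* measured 7.53 and 11.7 CPM in TRDKO56 and 4.34 and 9.18 CPM in WT56 at 6 hpa, against 14.6 and 10.3 CPM in TRDKO56 and 17.9 and 30.1 CPM in WT56 at 0 hpa and did not pass (log2 FC -1.04, FDR 0.0652). In the opposite direction *arntl* (chromosome 4, 6797642 to 6825257) measured 76.9 and 89.8 CPM in TRDKO56 and 72.3 and 60.9 CPM in WT56 at 6 hpa, against 20.2 and 30.8 CPM in TRDKO56 and 17.3 and 10.4 CPM in WT56 at 0 hpa (log2 FC 1.93, SE 0.19, FDR 2.27e-05). Its partner gene *npas2* measured 4.21 to 10.5 CPM at 6 hpa, against 0.92 to 3.34 CPM at 0 hpa (log2 FC 1.48 ± 0.34, SE). The times of day at which tails were cut and collected are not given in the sources used here, and a difference in time of day cannot be told apart from the time since amputation.

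Muscle fills most of the tail. Of 32 contractile genes tested 2 rose and none fell, which is 6.25% against 11.6% of all genes tested. The summed level of the contractile genes was 36000.0 to 59620.0 CPM at 6 hpa, against 30560.0 to 59200.0 CPM at 0 hpa, with overlap. *casq1*, the calcium store protein of muscle, measured 65.4 and 60.9 CPM in TRDKO56 and 95.8 and 85 CPM in WT56 at 6 hpa, against 18.5 and 36 CPM in TRDKO56 and 36 and 41.7 CPM in WT56 at 0 hpa (log2 FC 1.21, SE 0.17, FDR 0.000263). *xirp1*, which marks muscle under repair or strain, measured 75.3 and 85.4 CPM in TRDKO56 and 109.8 and 186 CPM in WT56 at 6 hpa, against 38.5 and 38.3 CPM in TRDKO56 and 57.8 and 59.5 CPM in WT56 at 0 hpa (log2 FC 1.20, SE 0.15, FDR 8.46e-05). *ankrd1*, another strain-responsive gene, measured 26.9 and 26.5 CPM in TRDKO56 and 36 and 46.2 CPM in WT56 at 6 hpa, against 101 and 56.1 CPM in TRDKO56 and 112 and 110.4 CPM in WT56 at 0 hpa (log2 FC -1.49, SE 0.16, FDR 3.91e-05). The myogenic factor *myod1* (chromosome 4, 902672 to 903295) measured 7.1 and 13 CPM in TRDKO56 and 13 and 17.3 CPM in WT56 at 6 hpa, against 1.48 and 4.06 CPM in TRDKO56 and 5.61 and 3.37 CPM in WT56 at 0 hpa (log2 FC 1.72, SE 0.29, FDR 0.00101). *myf5*, a factor of muscle precursors, measured 2.31 and 2.89 CPM in TRDKO56 and 3.06 and 3.46 CPM in WT56 at 6 hpa, against 7.67 and 9.39 CPM in TRDKO56 and 6.61 and 5.83 CPM in WT56 at 0 hpa (log2 FC -1.36, SE 0.22, FDR 0.000478). The pair of myogenic factors thus moved in opposite directions, with no overlap in either. Over 20 genes of muscle stress and atrophy 4 rose and 2 fell (30.0% called), and over 17 myogenic regulators tested 2 rose and 1 fell (17.6%). Rises on the stress list were 1 without replicate 2 of WT56 at 6 hpa, and 2 without replicate 2 of TRDKO56 at 6 or 0 hpa or with upper-quartile scaling.

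Among 22 posterior *hox* and tail bud genes tested 9.09% were called, against 11.6% of all genes tested, and 2 rose and none fell. They were *hmga2* (6.24 and 8.59 CPM in TRDKO56 and 7.3 and 3.85 CPM in WT56 at 6 hpa, against 0.371 and 0.93 CPM in TRDKO56 and 0.701 and 0.307 CPM in WT56 at 0 hpa, log2 FC 3.32 ± 0.35, SE), a chromatin protein of embryonic cells, and *sall4* (56.6 and 76.6 CPM in TRDKO56 and 49.6 and 53.3 CPM in WT56 at 6 hpa, against 24.5 and 31.2 CPM in TRDKO56 and 19.7 and 12.9 CPM in WT56 at 0 hpa, log2 FC 1.41 ± 0.16, SE), a transcription factor of stem cells and limb buds. Of 27 neural markers tested 2 rose and 3 fell, which is 18.5% against 11.6% of all genes tested. None fell without replicate 1 of WT56 at 0 hpa, and 1 fell without replicate 2 of WT56 at 0 hpa, either WT56 library at 6 hpa or replicate 2 of TRDKO56 at 0 hpa. *dcx* (doublecortin, of young neurons) measured 5.78 to 11.7 CPM at 6 hpa, against 2.15 to 2.72 CPM at 0 hpa (log2 FC 1.81 ± 0.26, SE), and *gad1.2*, which makes the transmitter GABA, measured 19.7 to 31 CPM at 6 hpa, against 6.92 to 12.6 CPM at 0 hpa (log2 FC 1.42 ± 0.20, SE). *sox2*, of neural stem cells, measured 3.36 to 6.91 CPM at 6 hpa, against 8.2 to 15.1 CPM at 0 hpa (log2 FC -1.07 ± 0.24, SE), and lost its call without replicate 1 of WT56 at 0 hpa (log2 FC -0.92) or at 6 hpa (-0.84). Of 20 genes of thyroid hormone metabolism and response 3 rose and 3 fell, which is 30.0% against 11.6% of all genes tested. *dio1*, a deiodinase, measured 13.9 and 4.73 CPM in TRDKO56 and 12.2 and 4.15 CPM in WT56 at 6 hpa, against 37.6 and 32.9 CPM in TRDKO56 and 37 and 25.5 CPM in WT56 at 0 hpa (log2 FC -1.93, SE 0.41, FDR 0.00889). *klf9*, a direct target of the receptors, measured 7.35 and 20.4 CPM in TRDKO56 and 8.29 and 20.9 CPM in WT56 at 6 hpa, against 5.07 and 3.21 CPM in TRDKO56 and 6.11 and 6.13 CPM in WT56 at 0 hpa (log2 FC 1.52, FDR 0.0241), and it lost its call without any 1 of 5 libraries (FDR 0.0530 to 0.0825). The genotypes overlapped in it at 6 hpa.

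The libraries at 24 hpa, which did not enter the test, give the later levels. Of the 933 genes that rose, 738 had a lower mean level at 24 hpa than at 6 hpa, and 93 had one below that at 0 hpa. Of the 901 genes that fell, 690 had a higher mean at 24 hpa than at 6 hpa, and 222 had one above that at 0 hpa. Both sets were selected by their levels at 6 hpa, so a return by 24 hpa is in part built into these counts. The same counts over all genes tested were not made. Means at 0, 6 and 24 hpa were 3.32, 126 and 44.4 CPM for *lep*, 3.31, 64.4 and 14.3 CPM for *hsp70* and 24.1, 314 and 98.4 CPM for *lamb3*, so these genes were highest at 6 hpa. They were 1.93, 28.7 and 368 CPM for *mmp13l*, 4.22, 39.6 and 81.1 CPM for *inhba*, 0.994, 44.7 and 92.7 CPM for *arg1* and 12.9, 126 and 755 CPM for *krt17*, which continued upward. Means of the retinoic acid genes *cyp26a1*, *cyp26b1* and *dhrs3* were 143, 0.493 and 30.7 CPM, 414, 77.1 and 293 CPM and 84.6, 13.6 and 52.7 CPM at these times, so that each was lowest at 6 hpa. All 16 DNA replication genes that fell had a mean at 24 hpa above the one at 0 hpa (*rrm2.2*, 42.8, 10.3 and 93.6 CPM), and so did 10 of the 11 mitosis genes (*mki67*, 110.2, 38.4 and 143 CPM). In contrast the means were 1537, 91.7 and 33.6 CPM for *fos*, 676, 35.4 and 18.7 CPM for *klf2*, 97.8, 21.9 and 21.3 CPM for *per1* and 694, 265 and 201 CPM for *col2a1*. Of the 14 immediate early genes that fell and of the 12 clock genes that fell none was above its 0 hpa mean at 24 hpa. The differences between 24 hpa and the other times were not tested here.

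**Figure D4:**
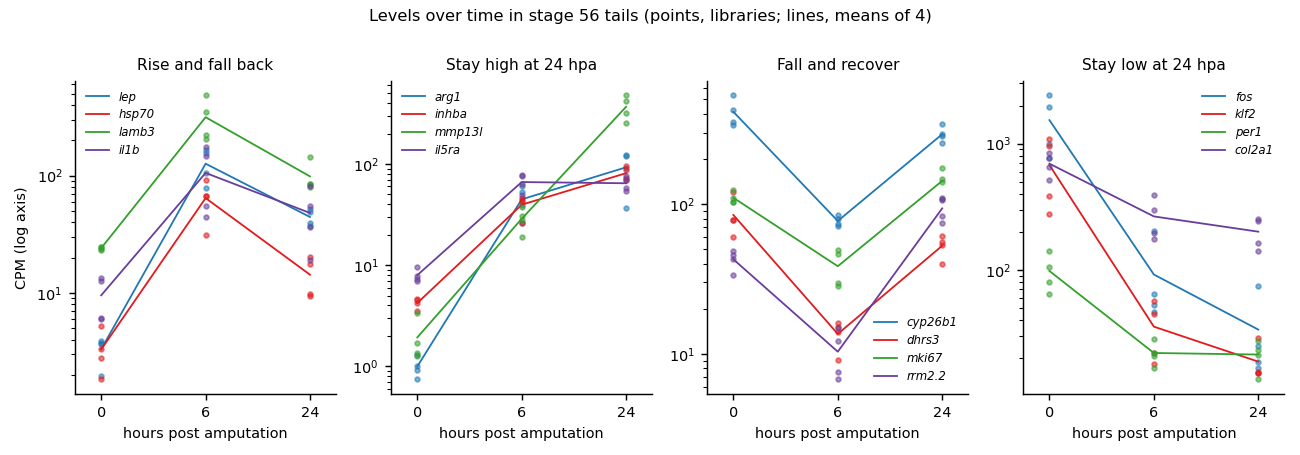
Levels in CPM (log axis) at 0, 6 and 24 hpa in stage 56 tails, where points are the 4 libraries of a time and lines join their means. The panels group genes by the course of their means, with *lep* highest at 6 hpa, *mmp13l* highest at 24 hpa, *cyp26b1* lowest at 6 hpa, and *fos* lower at 24 hpa than at 0 hpa.

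The change was also tested in each genotype. In a fit of the 8 libraries, 1579 genes were DEGs in TRDKO56 (868 up, 711 down) and 1562 in WT56 (806 up, 756 down). These counts moved with single libraries. The TRDKO56 count was 888 without its 0 hpa replicate 1 and 921 without its 6 hpa replicate 2. The WT56 count was 1031 and 765 without its 0 hpa replicates 1 and 2, and 986 without its 6 hpa replicate 2. Of the 1834 DEGs of the comparison, 1831 had the same sign in both genotypes and 993 were DEGs in each. The DEGs were selected by a change common to both genotypes, so a shared sign is in large part built into this count. The same count over all genes tested was not made. A test of the difference between the changes (TRDKO56 minus WT56, log2 scale) called 4 of 15867 genes at an FDR under 0.05, which is 0.0252% of those tested, and 606 at an unadjusted p under 0.05. The number was 57 with a replicate block, 56 with DESeq2 and 14 without a filter on low counts. Without either 0 hpa library of either genotype none passed, without 6 hpa replicate 1 of TRDKO56 20 passed, without 6 hpa replicate 2 of WT56 15 passed, and without the other 6 hpa libraries 1 (TRDKO56, replicate 2) and 2 (WT56, replicate 1) passed. A p that misses the limit does not show that the genotypes respond equally.

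The 4 genes shared a pattern, in which the genotypes were apart at 0 hpa and close at 6 hpa. *ifnlr1* (chromosome 2, 80754653 to 80770830), a receptor chain for interferon lambda, measured 14.7 and 13.4 CPM in TRDKO56 and 11.2 and 9.68 CPM in WT56 at 6 hpa, against 6.43 and 7.1 CPM in TRDKO56 and 34.3 and 38.3 CPM in WT56 at 0 hpa. Its change was 1.05 in TRDKO56 and -1.79 in WT56 (difference 2.84, SE 0.28, FDR 0.00573). *tns4* (chromosome 10, 8452385 to 8473934), a tensin of focal adhesions, measured 121 and 161 CPM in TRDKO56 and 93.3 and 179.9 CPM in WT56 at 6 hpa, against 21 and 21.4 CPM in TRDKO56 and 197 and 202 CPM in WT56 at 0 hpa (difference 3.28, SE 0.39, FDR 0.0415). *cnfn.1* (chromosome 7, 107716887 to 107723405), which codes for the cornified envelope protein cornifelin, measured 1018 and 1295 CPM in TRDKO56 and 1005 and 1050.0 CPM in WT56 at 6 hpa, against 63.9 and 61.6 CPM in TRDKO56 and 241 and 224 CPM in WT56 at 0 hpa and rose in both genotypes (log2 FC 4.20 in TRDKO56 and 2.14 in WT56, difference 2.06, SE 0.26, FDR 0.0369). *tmem265* (chromosome 9, 13728738 to 13736139) measured 71.9 and 106 CPM in TRDKO56 and 72.7 and 80.3 CPM in WT56 at 6 hpa, against 31.3 and 32.2 CPM in TRDKO56 and 104 and 140.1 CPM in WT56 at 0 hpa (difference 2.15, SE 0.29, FDR 0.0425). The sizes of the differences held without any 1 library (2.74 to 2.94 for *ifnlr1*, 2.86 to 3.82 for *tns4*, 1.87 to 2.22 for *cnfn.1*, 1.83 to 2.40 for *tmem265*). Their calls did not, since each lost its call without either 0 hpa library of either genotype, with an FDR between 0.0858 and 0.476. *cnfn.1* and *tmem265* also lost theirs without TRDKO56 at 6 hpa, replicate 2 (FDR 0.147 for each) or WT56 at 6 hpa, replicate 1 (FDR 0.118 for each), and *tns4* without TRDKO56 at 6 hpa, replicate 2 (FDR 0.193). The knockout and the wild type were bred from different parents, and genotype and family cannot be told apart.

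**Figure D5:**
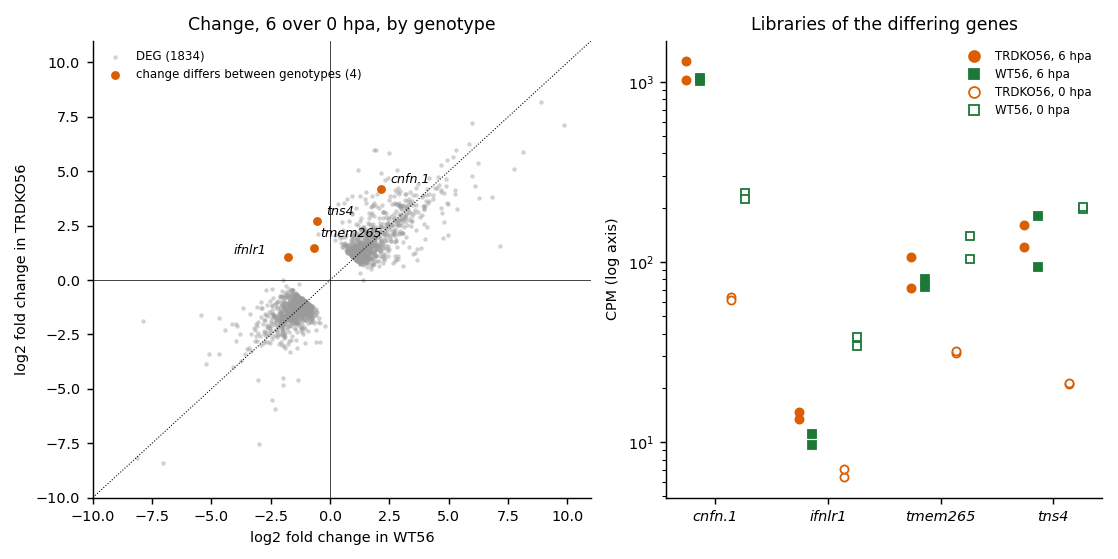
Left, log2 fold change (6 over 0 hpa) in TRDKO56 (upward) and in WT56 (across) of the 1834 DEGs in grey and of the 4 genes whose change differed between the genotypes in orange; the dotted line marks equal change. Right, level in CPM (log axis) of these 4 genes in each library, with 6 hpa (filled) left of 0 hpa (open), circles for TRDKO56 and squares for WT56. At 0 hpa the genotypes are apart in all 4 genes.

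The 6 hpa change was compared with that at stage 61, the climax of metamorphosis, by testing the difference between the changes (stage 56 minus stage 61, each averaged over the genotypes, 16 libraries). In the study WT tails did not regenerate at stage 61 and TRDKO tails did, and the stage 61 average joins both. The test therefore does not set regenerating against non-regenerating tails. Of 16501 genes tested 170 (1.03%) passed an FDR of 0.05. Without 1 of the 16 libraries the number ran from 59 (without WT56 at 0 hpa, replicate 1) to 485 (without WT56 at 6 hpa, replicate 1), and leaving out any of 12 of them moved it by more than 1.5 times. The genes with the smallest p were *LOC101734942*, *dbp*, *muc22*, *col9a2* and *cry2*. *dbp* changed by -2.57 at stage 56 and by -0.50 at stage 61 (difference -2.06, SE 0.22, FDR 0.00154), and *cry2* by -2.10 and -0.61 (difference -1.49, SE 0.19, FDR 0.00394). *per1* (difference -1.72, FDR 0.0161), *per2* (-1.44, FDR 0.0049), *nr1d2* (-1.21, FDR 0.0156) and *arntl* (1.13, FDR 0.0484) differed as well, and in all 9 of 25 clock genes were called. Their changes were thus larger at stage 56 than at stage 61 in the 6 clock genes named here. The times of day of cutting and collection are not given for either stage. A difference between the stages in time of day cannot be told apart from the stage itself.

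Genes of the matrix and of activin also differed between the stages. *col9a2* averaged 77.6 ± 29.1 CPM at 6 hpa and 135 ± 44.9 CPM at 0 hpa at stage 56 (SD, n = 4 each), and 5.82 ± 3.53 CPM at 6 hpa and 45.1 ± 4.2 CPM at 0 hpa at stage 61 (SD, n = 4 each), so that it changed by -0.81 and -3.04 on the log2 scale (difference 2.24, SE 0.26, FDR 0.00242). *inhba* rose by 3.25 at stage 56 and by 1.64 at stage 61 (difference 1.60, SE 0.30, FDR 0.0263). *inhbb* changed by -3.34 at stage 56 and by -0.74 at stage 61 (difference -2.62, SE 0.42, FDR 0.0103). *muc22*, a mucin, fell at stage 56 (5.83 to 9.87 CPM at 6 hpa, against 20.5 to 32.5 CPM at 0 hpa) and changed by 0.29 at stage 61 (difference -1.87, SE 0.20, FDR 0.00154). None of the retinoic acid genes, neutrophil markers or proteases tested was called in this test, with *cyp26a1* at -8.15 and -5.57, *mpo* at 2.17 and 2.39, and *mmp9.1* at 3.09 and 3.08. Only 1.03% of all genes tested were called, so lists of this size can hold none. A miss does not show that a gene changed equally at both stages.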

How the data were processed

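RNA-seq libraries were made from tail tissue, with 2 libraries in each of 12 conditions. The deposited table holds raw counts per gene. Per the labels and the study's methods, the authors trimmed and aligned reads and counted them per gene. The submitters' processing notes name cutadapt 3.2, STAR 2.7.7a and Subread 2.0.1 (featureCounts), whereas the methods name other versions of STAR and Subread and assemblies of NCBI, Xenbase and Ensembl. The strand option and the treatment of reads shared by similar genes are not given in the sources used here. The table holds 26531 genes, of which 22489 have a count, and 2 genes that were broken over several lines were rejoined. Coordinates are those of the RefSeq gene table of UCB_Xtro_10.0, and for 99.3% of 26480 symbols the start was the same in the deposited table.

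Counts were analysed in R 4.3.3 with edgeR 4.0.16 (filterByExpr, TMM factors, robust quasi-likelihood test, Benjamini-Hochberg FDR) on the 8 libraries, with genotype as a term. SE is the absolute log2 FC divided by the square root of F. CPM used TMM factors over all 24 libraries. The changes per genotype and their difference came from a model with the 4 groups, and the stage difference from 16 libraries. A gene that had 3 counts or fewer in all libraries of a time is given with a bound. Alternatives were other scalings, no filter, DESeq2 1.42.0, all 24 libraries, no genotype term, a replicate block, glmTreat, counts thinned to the smallest total, each genotype alone, and each library left out in turn.

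Named genes were the 12 largest rises and falls, up to 4 rises and 4 falls of each of 29 role lists and 10 cell type lists with a mean of at least 2 CPM, a set of 25 genes whatever their values, and the 5 genes of smallest p in each difference test. Members, lists and rules were chosen with earlier results of these data known. Promoter sequences were not analysed here, and results of some genes on the lists are not reported here.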

Additional observations from a re-analysis of the deposited data

Results flagged for a closer look

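A total of 4 named genes changed differently in the 2 genotypes at stage 56. The change in TRDKO56 minus that in WT56 was 2.06 for *cnfn.1*, 2.84 for *ifnlr1*, 2.15 for *tmem265* and 3.28 for *tns4* on the log2 scale. All 4 passed the test of the difference itself, and the calls depended on single libraries as given with their values.

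The change at stage 56 differed from that at stage 61 in 13 named genes. The difference (stage 56 minus stage 61) was -2.06 for *dbp*, -1.49 for *cry2*, -1.21 for *nr1d2*, -1.72 for *per1*, -1.44 for *per2* and 1.13 for *arntl*, all of the circadian clock. It was 1.60 for *inhba* and -2.62 for *inhbb*, the activin subunits. It was 2.24 for *col9a2*, of the matrix. It was 1.99 for *cnfn.1*, -1.87 for *muc22*, -2.29 for *LOC101734942* and 1.21 for *LOC116408737*. Each passed the test of the difference between stages, in which stage and an unrecorded time of day cannot be told apart.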

How the results depend on the processing

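The count of DEGs (1834, 933 up and 901 down) was 1522 to 1902 under the alternatives other than glmTreat, which gave 510 (325 up, 185 down). Falls outnumbered rises with upper-quartile scaling (838 up, 1051 down) and with a replicate block (926 up, 945 down). Leaving out 1 library gave 1616 to 2125 DEGs, with 851 to 1022 up and 765 to 1103 down. Within TRDKO56 the counts ran from 888 to 2162 (558 to 1058 up, 330 to 1104 down) and within WT56 from 765 to 2025 (425 to 976 up, 340 to 1049 down), and DEGs among all list members from 206 to 281. The genotype difference had 14 genes without a filter, 56 with DESeq2, and 0 to 20 without 1 library. The stage difference had 570 genes with DESeq2 and 59 to 485 without 1 library. In lists without such values beside them, counts of 0 to 2 calls in a direction moved by at most 2 without 1 library. The causes were not tested.

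The replicate numbers were not taken to pair the samples, since not every correlation of the deviations of same-numbered libraries at 6 and 0 hpa passed 0.1. They correlated at 0.118 in TRDKO56 and 0.0993 in WT56 over 10906 genes, and pairing across the genotypes was not checked. With a replicate block 1871 DEGs were called (926 up, 945 down), 57 genes differed between genotypes and 99 between stages, and 7 of the 179 named genes lost their call. Of the 169 named genes that were DEGs, 130 were called under every alternative other than glmTreat, and 96 under glmTreat too. The sign turned in 4 named genes that were not DEGs: with TRDKO56 alone *atf3* changed by 0.31 and *ifnlr1* by 1.07, and with WT56 alone *tmem265* by -0.67 and *tns4* by -0.55.

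With 2 libraries per condition and one of 3956148 counts, low genes are imprecise. No alternative can tell time of day, cell number or family from the effects they go with.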

Other observations

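Further genes were picked after their values were seen and lie outside the lists. Their libraries at 6 hpa did not overlap with those at 0 hpa, and the same held for 31.8% of all genes tested. The values were known when the genes were picked, so this lack of overlap is no support for their changes. *epx* (eosinophil peroxidase) measured 146 to 278 CPM at 6 hpa, against 19.6 to 28.9 CPM at 0 hpa (log2 FC 3.27 ± 0.17, SE), and *prtn3* (proteinase 3) measured 37.8 to 65.8 CPM at 6 hpa, against 3.99 to 7.69 CPM at 0 hpa (log2 FC 3.15 ± 0.19, SE). *ltb4r*, the receptor of leukotriene B4, measured 26.6 to 68.1 CPM at 6 hpa, against 2.54 to 5.83 CPM at 0 hpa (log2 FC 3.52 ± 0.33, SE). Of genes that take part in ribosome production, *utp20* measured 63.2 to 65.4 CPM at 6 hpa, against 20.8 to 27.6 CPM at 0 hpa (log2 FC 1.41 ± 0.12, SE) and *brix1* measured 67.2 to 100.2 CPM at 6 hpa, against 22.7 to 39.99 CPM at 0 hpa (log2 FC 1.41 ± 0.13, SE). *ppargc1a*, a coactivator of mitochondrial genes, fell (6.16 to 9.48 CPM at 6 hpa, against 17.8 to 40.9 CPM at 0 hpa, log2 FC -1.83 ± 0.16, SE), and so did *scx*, a transcription factor of tendon cells (3.68 to 7.78 CPM at 6 hpa, against 11.7 to 18.8 CPM at 0 hpa, log2 FC -1.35 ± 0.23, SE), and the cold receptor gene *trpm8* (2.27 to 6.58 CPM at 6 hpa, against 10.9 to 22.1 CPM at 0 hpa, log2 FC -1.99 ± 0.19, SE).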
